A study of Homo sapiens with 20 samples.

Results

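The 44 protein-coding genes whose symbol is COL, a number, A and a number encode the chains of the collagens. They were taken by that rule from the 60624 genes of the hILO files and the 60623 genes of the PP files, and all 44 were listed in both. They were followed in WT cells of MEL1, a human embryonic stem cell line that the study names as MEL1 INSGFP/W and that carries GFP under the endogenous *INS* promoter, and in A5-KO cells, derived from it by CRISPR-Cpf1 disruption of *ALKBH5*, which encodes an m6A RNA demethylase. PPs (pancreatic progenitors) of each genotype were collected untreated (0 h) or after 1, 2 or 3 h of actinomycin D (Act D, an inhibitor of transcription) at 1 µg/ml, with 2 libraries for each genotype and time and 16 in all. hILOs (human islet-like organoids, whose labels list media to day 22) gave 2 WT and 2 A5-KO libraries and had no Act D. Both genotypes were kept on CF1 feeder cells as stem cells, and both received vitamin C in the media from which PPs and hILOs were made. The labels name no clone, so the loss of *ALKBH5* and other properties of the A5-KO cells cannot be told apart. They also do not say whether the libraries of a group came from separate differentiations, so *p*-values measure the spread between these libraries, which may be technical.

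Collagens are triple helices, and most chains fold only with their own partner chains, so that 1 missing partner can leave a chain without its usual molecule. Fibrillar chains form the fibres of connective tissue and cartilage. Type IV chains form the network of basement membranes, the sheets on which epithelia rest and which surround islets, and the multiplexin chain *COL18A1* belongs to the same sheets. FACIT chains attach to the surface of fibrils, type VI chains make beaded filaments, and transmembrane chains span the plasma membrane. Fibrillar collagen mRNAs are mainly known from mesenchymal cells, and type IV mRNAs also from epithelia and endothelium.

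*ALKBH5* was at 78.8 and 81.9 TPM in WT hILOs and at 4.16 and 3.42 TPM in A5-KO hILOs. In PPs at 0 h it was at 149.3 and 171.9 CPM in WT and at 19.1 and 18.8 CPM in A5-KO, so the libraries matched their labels at both stages. TPM is scaled to transcript length and to the library total and keeps no depth, so the depth of the hILO libraries is unknown. The deposited TPM values summed to 924887 and 922614 in WT and to 897038 and 887320 in A5-KO. The main fits did not rescale them. CPM scales reads to the library total without a length correction, and the PP libraries held 30516384 to 35206514 reads, of which 3 reads correspond to at most 0.0983 CPM. Of 10 markers of mesenchyme, 5 had a mean of at least 1 TPM in hILOs, and the sum of the 10 was 279.4 to 280.1 TPM in WT, against 146.7 to 154.2 TPM in A5-KO, most of it *VIM*. In A5-KO hILOs *VIM* and *TAGLN* were called lower and *LUM* higher (0.952 and 0.854 TPM in WT, against 4.71 and 4.05 TPM in A5-KO, limma adjusted *p* = 0.018). In PPs at 0 h *LUM* was again called higher (log2 difference 1.12, adjusted *p* = 0.021), *PDGFRA* (0.79, adjusted *p* = 0.079) and *PDGFRB* (0.51, adjusted *p* = 0.11) were not called, and 5 of 6 tested markers had a difference above 0. Of the same list, *DCN*, *THY1* and *PRRX1* were under 1 in all hILO libraries and all PP libraries at 0 h. The 4 endothelial markers summed to at most 0.519 TPM in hILOs and 8.87 CPM in PPs at 0 h. Other markers also differed: 4 hepatic markers summed to 690.1 to 699.0 CPM in WT PPs at 0 h and 1532 to 1555 CPM in A5-KO, and to 17020 to 17350 TPM in WT hILOs and 29850 to 30190 TPM in A5-KO hILOs. In PPs, where most of each sum was *AFP*, *AFP*, *ALB* and *TTR* were called higher and *APOA1* was not. In hILOs *TTR* (7527 and 7550 TPM in WT, against 18670 and 18750 TPM in A5-KO) and *ALB* were called higher. *AFP* (log2 difference 0.17) and *APOA1* (-0.004) were not called in hILOs. The hormone genes *INS*, *GCG*, *SST* and *PPY* were lower in A5-KO hILOs. Their part in the collagen results was not tested, and in bulk samples fewer cells of a type and less RNA per cell cannot be told apart.

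Promoter sequences are shown for the genes on which the results turn. The 100 bases between the start of *COL4A1* and the next annotated exon of *COL4A2* are given because these partner genes, read mostly away from each other, were both lower in A5-KO hILOs. A further *COL4A2* transcript starts inside *COL4A1*. The 250 bases before the start are given for *COL28A1*, which had the largest increase in PPs, and for *COL6A2*, which had the largest decrease in PPs. They are also given for *COL4A5*, the member whose slope difference between the genotypes under Act D was called. They were taken from RefSeq on GRCh38.p14 and run 5′ to 3′ on the strand named. Capitals mark matches on either strand to the letters of the TATA box (TATAAA), of the CCAAT box, and of the GC box bound by SP1 (GGGCGG).
COL4A1 to COL4A2 (chr13:110307158-110307257, plus strand): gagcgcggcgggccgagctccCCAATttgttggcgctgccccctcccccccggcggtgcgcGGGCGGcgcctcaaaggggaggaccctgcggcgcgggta
COL28A1 (chr7:7535874-7536123, minus strand): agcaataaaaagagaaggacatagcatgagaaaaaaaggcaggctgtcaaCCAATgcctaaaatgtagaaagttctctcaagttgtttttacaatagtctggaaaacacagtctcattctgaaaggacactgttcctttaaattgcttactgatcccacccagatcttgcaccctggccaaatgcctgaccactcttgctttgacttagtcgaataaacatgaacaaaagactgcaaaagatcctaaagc
COL6A2 (chr21:46097862-46098111, plus strand): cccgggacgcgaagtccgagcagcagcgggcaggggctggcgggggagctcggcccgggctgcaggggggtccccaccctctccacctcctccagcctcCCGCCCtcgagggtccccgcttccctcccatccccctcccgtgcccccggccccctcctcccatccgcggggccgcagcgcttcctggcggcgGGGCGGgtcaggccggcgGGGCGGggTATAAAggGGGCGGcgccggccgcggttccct
COL4A5 (chrX:108439588-108439837, plus strand): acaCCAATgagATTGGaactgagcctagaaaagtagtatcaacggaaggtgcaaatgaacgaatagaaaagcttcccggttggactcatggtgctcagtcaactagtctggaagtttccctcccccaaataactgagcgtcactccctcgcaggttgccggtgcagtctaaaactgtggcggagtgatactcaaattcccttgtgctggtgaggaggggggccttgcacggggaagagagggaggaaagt
The segment between *COL4A1* and *COL4A2* held CCAAT once and GGGCGG once. Before *COL6A2* there was TATAAA once and GGGCGG 4 times, before *COL28A1* CCAAT once, and before *COL4A5* CCAAT 2 times. RefSeq windows were matched for 32 of the 44 genes, of which 5 held TATAAA, 9 held CCAAT and 18 held GGGCGG in the 250 bases before the start. Over 27305 genes with such a window the shares were 11.1% for TATAAA, 33.0% for CCAAT and 42.3% for GGGCGG. These matches describe letters and say nothing of binding. No window was matched for *COL1A1*, *COL1A2*, *COL2A1*, *COL3A1*, *COL5A2*, *COL6A1*, *COL6A5*, *COL8A1*, *COL9A3*, *COL14A1*, *COL20A1* and *COL22A1*.

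The collagen chain genes differed widely in level. In hILOs 23 of 44 had a mean of at least 1 TPM, and in PPs at 0 h 28 of 44 had a mean of at least 1 CPM. The other members were under 1 on average, and 12 stayed under 1 in all 20 libraries: the short chain network genes *COL8A1*, *COL8A2* and *COL10A1*, the kidney-type basement membrane genes *COL4A3* and *COL4A4*, and *COL6A5*, *COL6A6*, *COL13A1*, *COL15A1*, *COL20A1*, *COL23A1* and *COL24A1*. In hILOs the order by mean TPM began with *COL18A1*, the source of endostatin, the fibrillar chain *COL5A2* and the cartilage chain *COL2A1*, followed by *COL6A1*, *COL27A1* and *COL26A1*. The order of the last 3 differed by genotype, since *COL26A1* (20.3 TPM) stood above *COL27A1* (18.6 TPM) in WT, and *COL27A1* (23.2 TPM) above *COL6A1* (20.7 TPM) in A5-KO, by means whose libraries overlapped in both cases. In PPs at 0 h, with CPM divided by the length of the canonical transcript, the order began with *COL2A1* at 128.4 CPM per kb in WT and 131.3 in A5-KO, then *COL6A1*, *COL18A1*, *COL4A5*, *COL26A1* and *COL4A2* by the mean of both genotypes. In WT *COL4A6* (25.2 CPM per kb) stood above *COL26A1* (24.9). *COL6A1* and *COL18A1* were neighbours at 55.3 and 50.5 CPM per kb in WT and 39.0 and 38.4 in A5-KO, and the A5-KO values did not differ beyond their spread.

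Partner chains were often far from equal. Type V is built from *COL5A1* and *COL5A2*, yet in hILOs *COL5A2* was at 157.3 and 159.0 TPM in WT, against 145.6 and 141.9 TPM in A5-KO, while *COL5A1* did not exceed 0.0511 TPM in any library. Type VI needs *COL6A1*, *COL6A2* and a long chain such as *COL6A3*, and in hILOs *COL6A1* was at 36.8 to 37.0 TPM in WT with *COL6A2* at 0.245 and 0.265 TPM and *COL6A3* at 0.0138 and 0.0153 TPM. Type I needs *COL1A1* and *COL1A2*, and *COL1A2* exceeded *COL1A1* in all 4 hILO libraries. In WT PPs at 0 h *COL1A2* was at 14.1 CPM per kb and *COL1A1* at 1.29, and *COL4A2* was at 22.1 and *COL4A1* at 11.0. Type XI uses *COL11A1*, *COL11A2* and *COL2A1*. *COL11A1* was at 27.8 to 39.1 CPM in PPs at 0 h but under 1 TPM in hILOs. *COL11A2* was at 2.13 to 3.63 TPM in hILOs and under 1 CPM in PPs. These stage differences were not tested, as the units differ. The collagen receptor *DDR1* was likewise at 67.6 to 77.0 TPM in hILOs but at most 0.614 CPM in PPs. Whether the PP counting missed such genes was not tested.

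In A5-KO hILOs 3 of the 4 tested type IV genes (*COL4A1*, *COL4A2* and *COL4A6*) were lower than in WT, as were *COL2A1*, *COL5A3*, *COL6A1*, *COL7A1*, *COL12A1* and *COL26A1*, and *COL1A2*, *COL28A1* and *COL17A1* were higher. Calls were made with limma on log2(TPM + 1) and needed both an adjusted *p* (Benjamini-Hochberg) under 0.05 and a difference of more than 1.5-fold. Of the 23 tested members, 9 were called lower, where 4.09% of the 17300 tested genes were called lower, and 3 were called higher, where 2.7% of all tested genes were. The median log2 difference was -0.47 over the 23 members and -0.06 over all tested genes.

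The type IV genes carried the largest decreases. *COL4A2* (chromosome 13, 110305812 to 110513209, plus strand of GRCh38) had 11.8 and 12.0 TPM in WT, against 1.87 and 1.98 TPM in A5-KO. Its partner *COL4A1* (chromosome 13, 110148963 to 110307157, minus strand) was at 6.66 and 6.98 TPM in WT, against 1.32 and 1.81 TPM in A5-KO. Both genes of this ubiquitous basement membrane pair were thus lower in each A5-KO library than in each WT library, as were 37.1% of all tested genes. The log2 differences were -2.14 (s.e. 0.13, limma adjusted *p* = 0.0055) for *COL4A2* and -1.62 (s.e. 0.18, adjusted *p* = 0.015) for *COL4A1*. *COL4A6* (chromosome X, minus strand) was at 7.34 and 6.95 TPM in WT, against 0.710 and 1.77 TPM in A5-KO, a log2 difference of -1.90 (s.e. 0.28, adjusted *p* = 0.028). Its neighbour and partner *COL4A5*, at 17.7 and 2.88 TPM in WT, against 1.69 and 8.80 TPM in A5-KO, overlapped between the genotypes and was not called (log2 difference -0.73, s.e. 1.01, adjusted *p* = 0.67). *COL4A4*, too low to test, was at 0.197 and 0.269 TPM in WT, against 0.519 and 0.547 TPM in A5-KO. The 6 type IV genes together summed to 43.7 and 29.1 TPM in WT, against 6.13 and 15.0 TPM in A5-KO. The multiplexin *COL18A1* was at 179.5 and 186.5 TPM in WT, against 149.7 and 148.4 TPM in A5-KO, a difference of -0.29 that passed the *p* threshold (adjusted *p* = 0.023) but not 1.5-fold. *COL18A1* shares 1563 of its 8464 exonic bases with *SLC19A1* on the opposite strand, and the strand used for counting is not given in the sources used here.

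The fibrillar chains went both ways. *COL2A1* was at 119.3 and 107.5 TPM in WT, against 48.3 and 45.7 TPM in A5-KO (log2 difference -1.25, s.e. 0.07, adjusted *p* = 0.0052). *COL5A3*, a minor type V chain, was at 18.2 and 18.5 TPM in WT, against 10.4 and 10.8 TPM in A5-KO, and it was called lower. In contrast *COL1A2* was at 5.98 and 2.65 TPM in WT, against 19.0 and 15.6 TPM in A5-KO (log2 difference 1.85, s.e. 0.35, adjusted *p* = 0.044), although its partner *COL1A1* stayed between 0.262 and 1.40 TPM in the 4 libraries and was not tested. *COL3A1*, the homotrimeric fibrillar chain of soft tissues, was at 1.53 and 1.82 TPM in WT, against 5.4 and 3.83 TPM in A5-KO, without overlap, but missed the threshold (log2 difference 1.06, adjusted *p* = 0.052). *COL27A1*, at 21.8 and 15.3 TPM in WT, against 20.5 and 26.0 TPM in A5-KO, overlapped between the genotypes. Neither it (log2 difference 0.32) nor *COL5A2* (-0.14) or *COL11A2* (-0.31) was called.

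Outside these classes, *COL6A1* was at 37.0 and 36.8 TPM in WT, against 21.4 and 20.1 TPM in A5-KO (log2 difference -0.81, s.e. 0.07, adjusted *p* = 0.0096). The FACIT chain *COL12A1* was at 4.51 and 3.1 TPM in WT, against 0.760 and 0.857 TPM in A5-KO (log2 difference -1.39, adjusted *p* = 0.034). *COL7A1*, which makes the anchoring fibrils that tie basement membranes to the tissue beneath, was at 14.5 and 13.1 TPM in WT, against 6.2 and 7.14 TPM in A5-KO. All 3 genes were lower in each A5-KO library than in each WT library, as were 37.1% of all genes tested in hILOs. *COL26A1* was likewise called lower, from 20.7 and 19.8 TPM in WT to 11.5 TPM in both A5-KO libraries. The increases were in *COL28A1*, from 1.63 and 2.61 TPM in WT to 8.61 and 9.08 TPM in A5-KO (log2 difference 1.68, s.e. 0.21, adjusted *p* = 0.019), and in *COL17A1*, the hemidesmosomal transmembrane chain, from 3.60 and 3.39 TPM to 7.12 and 6.5 TPM. *COL9A2*, at 11.9 and 11.4 TPM in WT, against 12.1 and 9.86 TPM in A5-KO, was not called, and its partners *COL9A1* and *COL9A3* were too low to test. *COL14A1* and *COL16A1* were not called, and neither were *COL21A1* (log2 difference 1.13, adjusted *p* = 0.054) and *COL22A1* (-0.79, adjusted *p* = 0.053), whose groups did not overlap.

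These hILO calls rest on 2 libraries per genotype, and an exact permutation test of 2 against 2 cannot give a two-sided *p* below 0.33. When 1 hILO library at a time was left out, the members called lower dropped from 9 to between 1 and 3, while the calls over all tested genes dropped from 707 to between 96 and 203. *COL2A1* was the gene that was called lower in all 4 of those fits. *COL4A2* was called in 2 of the 4 fits, *COL4A6* and *COL1A2* in 1 each, and the other 8 genes in none of them, all at 2 against 1 library. The log2 difference of *COL4A2* lay between -2.17 and -2.11 in those fits and that of *COL4A1* between -1.76 and -1.48. The members called higher dropped from 3 to 0 or 1, and those of all tested genes from 467 to between 83 and 118. With median-of-ratios scaling 5 members were called higher and 9 lower.

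**Figure D1:**
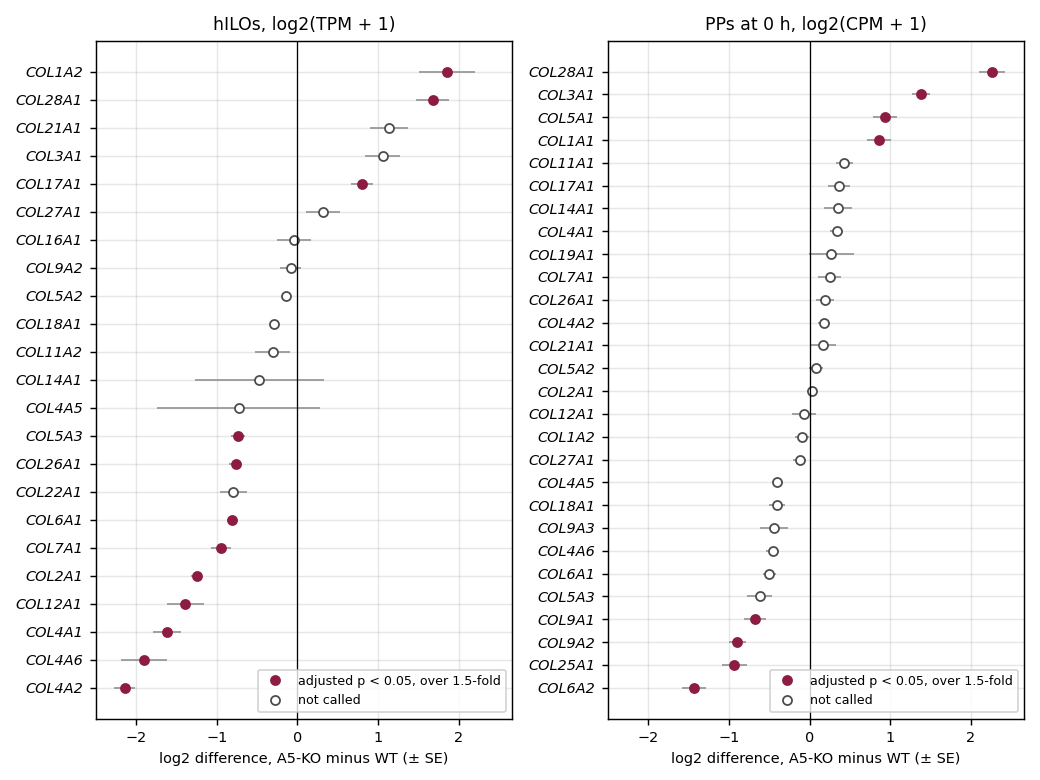
Log2 difference between A5-KO and WT (points, with 1 standard error as bars) for each tested collagen chain gene in hILOs (left) and PPs at 0 h (right), ordered by difference; filled points were called. *COL4A2*, *COL4A6* and *COL4A1* were lowest in hILOs, where 9 genes were called lower and 3 higher, and *COL28A1* and *COL3A1* were highest in PPs, where 4 were called in each direction.

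In PPs at 0 h *COL28A1* was the gene called at both stages. The other calls were the fibrillar genes *COL1A1*, *COL3A1* and *COL5A1*, higher in A5-KO, and *COL6A2*, *COL9A1*, *COL9A2* and *COL25A1*, lower. Of these, *COL1A1*, *COL5A1*, *COL6A2*, *COL9A1* and *COL25A1* were too low to test in hILOs. *COL3A1* had the same direction there but missed the threshold (log2 difference 1.06, limma adjusted *p* = 0.052), and *COL9A2* was tested there and not called. Of 28 tested members, 4 were called higher, where 1.57% of the 13911 tested genes were called higher, and 4 were called lower, where 1.13% of all tested genes were. The median log2 difference was 0.05 over the members and 0.03 over all tested genes.

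*COL28A1* had the largest increase. It was at 5.68 and 4.59 CPM in WT, against 31.6 and 25.5 CPM in A5-KO, a log2 difference of 2.27 (s.e. 0.16, adjusted *p* = 9.6e-05). *COL3A1* was at 22.0 and 24.1 CPM in WT, against 58.8 and 64.5 CPM in A5-KO (log2 difference 1.38, s.e. 0.11, adjusted *p* = 0.00014). These genes were the members with the largest increases, and their genotypes were far apart relative to the replicates. *COL5A1* was at 4.71 and 4.77 CPM in WT, against 10.1 and 9.90 CPM in A5-KO (log2 difference 0.94, s.e. 0.15, adjusted *p* = 0.0099), and *COL1A1* at 7.23 and 8.06 CPM in WT, against 13.6 and 15.9 CPM in A5-KO (0.86, s.e. 0.15, adjusted *p* = 0.014). Their more abundant partners were not called: *COL5A2* was at 98.0 and 106.8 CPM in WT, against 110.2 and 105.7 CPM in A5-KO, and *COL1A2* at 69.0 and 73.9 CPM in WT, against 64.7 and 68.7 CPM in A5-KO. *COL11A1* was at 28.9 and 27.8 CPM in WT, against 38.0 and 39.1 CPM in A5-KO, a difference of 0.43 that passed the *p* threshold (adjusted *p* = 0.049) but not 1.5-fold. *COL2A1*, the most abundant chain, was at 643.0 and 655.9 CPM in WT, against 645.8 and 683.0 CPM in A5-KO and was not called (log2 difference 0.03, s.e. 0.06).

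The decreases were led by *COL6A2* (chromosome 21, 46098112 to 46132848, plus strand), at 16.8 and 16.9 CPM in WT, against 5.22 and 5.98 CPM in A5-KO (log2 difference -1.44, s.e. 0.15, adjusted *p* = 0.00069). Its partner *COL6A1* was at 222.9 and 241.8 CPM in WT, against 156.4 and 171.6 CPM in A5-KO, a difference of -0.50 that passed the *p* threshold (adjusted *p* = 0.0092) but not 1.5-fold. Of the 3 chains of type IX, a FACIT of cartilage fibrils, *COL9A2* fell from 58.0 and 59.7 CPM to 28.8 and 33.7 CPM (-0.90, adjusted *p* = 0.0019) and *COL9A1* from 17.1 and 17.6 CPM to 9.61 and 11.4 CPM (-0.68, adjusted *p* = 0.029). The third, *COL9A3*, was lower in both A5-KO libraries but was not called (-0.44, adjusted *p* = 0.20). *COL25A1*, a transmembrane chain known from neurons, fell from 9.13 and 10.2 CPM to 4.61 and 4.54 CPM (-0.93, s.e. 0.16, adjusted *p* = 0.012). The *COL9A1* call was lost without WT replicate 1, WT replicate 2 or A5-KO replicate 1, and without WT replicate 2 the members called lower were 2. *COL25A1* was lost without WT replicate 2 and *COL1A1* without WT replicate 1. The other 5 calls were made in each of the 4 fits that left out 1 library.

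The type IV genes of PPs went with their neighbours. *COL4A1* was at 71.6 and 72.1 CPM in WT, against 90.3 and 91.2 CPM in A5-KO (log2 difference 0.33, adjusted *p* = 0.054), and *COL4A2* at 140.8 and 143.6 CPM in WT, against 154.0 and 167.9 CPM in A5-KO (0.18, adjusted *p* = 0.25). *COL4A5* was at 249.8 and 259.7 CPM in WT, against 190.0 and 195.8 CPM in A5-KO (-0.40, adjusted *p* = 0.014), and *COL4A6* at 158.3 and 178.9 CPM in WT, against 121.6 and 122.9 CPM in A5-KO (-0.46, adjusted *p* = 0.017). Both genes of the chromosome 13 pair were higher and both of the X chromosome pair lower in each A5-KO library, and none reached 1.5-fold. Of all genes tested in PPs at 0 h, 29% were higher and 20.8% lower in A5-KO without overlap. *COL18A1* lay at 266.6 and 279.9 CPM in WT, against 185.5 and 230.0 CPM in A5-KO (-0.40, adjusted *p* = 0.056). *COL26A1* was at 71.4 and 76.9 CPM in WT, against 77.0 and 93.3 CPM in A5-KO, and *COL27A1* at 141.4 and 146.8 CPM in WT, against 129.1 and 135.1 CPM in A5-KO. Neither was called, and neither were *COL7A1*, *COL12A1*, *COL14A1*, *COL17A1*, *COL19A1* and *COL21A1*. *COL5A3*, at 9.76 and 8.64 CPM in WT, against 5.78 and 5.48 CPM in A5-KO, missed the threshold with limma (-0.62, adjusted *p* = 0.060) and was the further member called lower with edgeR and with DESeq2 on whole reads recovered from the CPM.

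Under Act D the collagen chain genes took a growing share of the reads in A5-KO PPs. A slope per hour was fitted to log2(CPM + 0.1) over the 8 libraries of each genotype. Because CPM is relative to all mRNA of a library, a slope above 0 means that a gene's share of the total rose. If transcription had stopped, this would be slower loss than the total, and whether Act D stopped it fully was not tested. In A5-KO 22 of the 28 members had a slope above 0 at an adjusted *p* below 0.05, where 7.44% of the 13620 tested genes did, and none of them had a slope below 0 (limma, also none at an unadjusted *p* below 0.05), where 37.1% of all tested genes did. The median slope was 0.19 per h over the members and -0.08 over all tested genes. Median-of-ratios scaling, which moved the median slope of all genes to 0.02, gave 3188 genes above and 3646 below 0, against 1013 and 5054 before, and 27 members above 0 and none below.

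In WT, of the 28 members *COL3A1* alone was called above 0, where 0.132% of all tested genes were (10 members at an unadjusted *p* below 0.05), and none was called below 0 (3 at an unadjusted *p* below 0.05), where 0.11% of all tested genes were. The median slope was 0.07 per h over the members and -0.03 over all tested genes. Far more WT slopes were called in fits with fewer times. With 0 and 1 h alone, 25.4% of all tested genes were called below 0 in WT and 2.17% above 0. With 0 and 3 h alone, the WT shares were 16.1% below 0 and 1.64% above 0. The low WT counts here therefore do not mean that shares of the reads stayed constant under Act D. *COL3A1* went from 22.0 and 24.1 CPM before Act D through 36.4 and 32.5 CPM after 1 h and 42.6 and 42.3 CPM after 2 h to 43.6 and 44.04 CPM after 3 h, a slope of 0.31 per h (s.e. 0.05, adjusted *p* = 0.012). Its call was lost without either WT library at 0 h and without WT replicate 1 at 3 h. In A5-KO, where *COL3A1* began higher, it was at 58.8 and 64.5 CPM at 0 h and 92.5 and 89.1 CPM at 3 h (0.17 per h, s.e. 0.05).

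**Figure D2:**
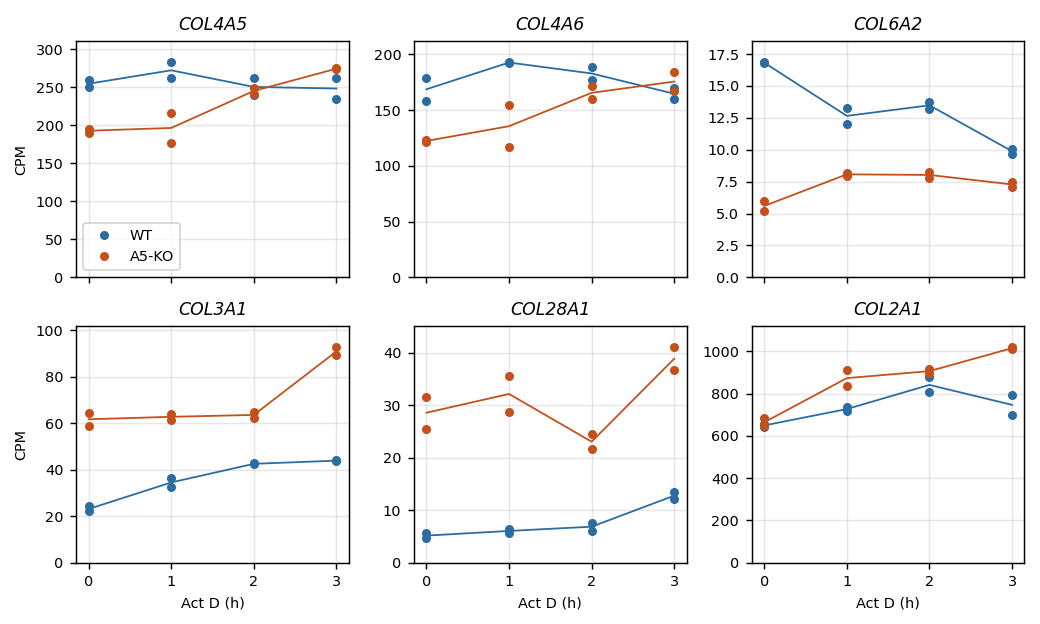
CPM against hours of Act D for 6 collagen chain genes in WT (blue) and A5-KO (orange) PPs; points are libraries and lines join the means of 2 libraries. *COL4A5* and *COL4A6* began lower in A5-KO and reached the WT values by 3 h, the *COL6A2* and *COL28A1* groups did not overlap at any time although their *COL6A2* values were closer at 3 h (16.8 and 16.9 against 5.22 and 5.98 CPM at 0 h, 10.1 and 9.70 against 7.07 and 7.49 CPM at 3 h), and *COL2A1* separated from WT as Act D went on.

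The basement membrane genes had slopes above 0 in A5-KO for all 4 tested members. *COL4A2* went from 154.0 and 167.9 CPM at 0 h to 272.0 and 263.4 CPM at 3 h (0.26 per h, s.e. 0.04, adjusted *p* = 9.2e-05), and *COL4A1* from 90.3 and 91.2 CPM to 140.2 and 145.4 CPM (0.24 per h). Both also had slopes above 0 in WT, 0.12 per h for *COL4A2* and 0.13 per h for *COL4A1* (s.e. 0.04 each), which were not called. *COL4A5* went from 190.0 and 195.8 CPM to 275.3 and 273.8 CPM in A5-KO (0.19 per h, s.e. 0.03), while in WT it began at 249.8 and 259.7 CPM and ended at 262.4 and 234.5 CPM (-0.02 per h, s.e. 0.03). *COL4A5* was the only member whose slope difference was called: 1 of 28 members was called higher in A5-KO, where 0.0661% of all tested genes were. At an unadjusted *p* below 0.05, 14 members were higher with limma and 20 with edgeR. None was called lower by limma or edgeR (1 at an unadjusted *p* below 0.05 with each), where limma called 2.61% of all tested genes. The median difference was 0.14 per h over the members and -0.07 over all tested genes. It was above 0 for 26 of 28 members and for 4305 of 13620 tested genes. The difference for *COL4A5* was 0.21 per h (s.e. 0.05, adjusted *p* = 0.041), and it was called in 3 of the 16 fits that each left out 1 library, with values between 0.19 and 0.23. *COL4A5* lay lower in A5-KO at 0 h, and the libraries of 0 h enter both the level and the slope. *COL4A6* (0.20, adjusted *p* = 0.060), *COL6A2* (0.33, adjusted *p* = 0.054) and *COL9A2* (0.21, adjusted *p* = 0.059) missed the threshold.

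Among fibrillar chains 8 of the 9 tested were called above 0 in A5-KO. *COL2A1* went from 645.8 and 683.0 CPM at 0 h to 1019 and 1012 CPM at 3 h in A5-KO (0.19 per h, s.e. 0.04), and from 643.0 and 655.9 CPM to 794.9 and 698.9 CPM in WT (0.08 per h). Its slope difference was 0.11 per h and was not called (limma adjusted *p* = 0.22). *COL1A1* had the steepest slope of the members in A5-KO, from 13.6 and 15.9 CPM to 29.1 and 29.9 CPM (0.31 per h, s.e. 0.09), and 0.28 per h in WT, where it was not called. Its unadjusted limma *p* was 0.0042 in A5-KO and 0.0073 in WT, so the calls differed through the adjustment over all genes. The slope difference was 0.02 per h (limma adjusted *p* = 0.94). Counts of calls within each genotype therefore do not compare the slopes. *COL27A1*, the remaining fibrillar gene, went from 129.1 and 135.1 CPM through 96.5 CPM in both libraries at 2 h to 153.4 and 145.9 CPM (0.04 per h). The FACIT genes *COL9A1*, *COL9A2*, *COL9A3*, *COL12A1*, *COL14A1* and *COL21A1*, together with *COL6A1*, *COL17A1*, *COL18A1* and *COL26A1*, were also called above 0 in A5-KO. *COL6A2*, *COL7A1*, *COL19A1*, *COL25A1* and *COL28A1* were not. *COL28A1* went from 31.6 and 25.5 CPM at 0 h through 21.6 and 24.5 CPM at 2 h to 41.0 and 36.7 CPM at 3 h in A5-KO, and from 5.68 and 4.59 CPM to 12.1 and 13.5 CPM in WT.

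Seen by time, the median log2 ratio of the 28 members to the mean of 0 h started in the WT libraries with 0.16 and 0.18 at 1 h, had values of 0.18 and 0.21 at 2 h, and ended with 0.27 and 0.15 at 3 h. In the A5-KO libraries it started with 0.38 and 0.08 at 1 h, had values of 0.46 and 0.43 at 2 h, and ended with 0.59 and 0.61 at 3 h. The genotypes therefore overlapped at 1 h and stood apart at 2 and 3 h. All 28 members were above their 0 h mean in both A5-KO libraries at 3 h, against 20 and 18 in the WT libraries. Of all tested genes, 35.4% and 34.1% were above it in the A5-KO libraries and 36.4% and 37.5% in the WT libraries. Over all tested genes the median lay between -0.27 and -0.10 in these libraries.

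The difference between the genotypes depended on the later times. With 0 and 1 h alone, no slope difference was called among the members. In that fit 10 members had slopes called above 0 in A5-KO, where 8.52% of all tested genes did, and 6 in WT, where 2.17% did, and the *COL4A5* difference was -0.0757 per h. With 0 and 3 h alone 10 members were called higher in A5-KO, where 2.14% of all tested genes were, and 1 lower, where 20.1% were. In A5-KO the 5 pancreatic progenitor markers summed to 742.2 and 819.8 CPM at 0 h, 276.9 and 289.0 CPM at 1 h, 137.1 and 143.2 CPM at 2 h and 86.6 and 99.1 CPM at 3 h. Their WT sums were 815.3 and 1039 CPM at 0 h, 274.7 and 313.6 CPM at 1 h, 187.5 and 413.6 CPM at 2 h and 329.0 and 341.4 CPM at 3 h. The genotypes overlapped at 0 and 1 h and were apart at 2 and 3 h. Of the 5 markers, 4 had a slope difference below 0 and *ONECUT1* had 1 above 0 (0.25 per h), and none was called. The part of these markers in the collagen slopes was not tested.

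Enzymes and partners of collagen assembly were followed alongside, against the same shares of all tested genes, 4.09% called lower and 2.7% higher in hILOs and 1.13% and 1.57% in PPs at 0 h. Of 16 tested genes that modify and fold chains in the endoplasmic reticulum, 2 fell in A5-KO hILOs and none rose (limma, 1 higher at an unadjusted *p* below 0.05). These were *P4HA1*, a subunit of prolyl 4-hydroxylase, from 108.1 and 113.2 TPM to 46.1 and 48.9 TPM (log2 difference -1.20, adjusted *p* = 0.0036), and the lysyl hydroxylase *PLOD2*, from 187.5 and 191.8 TPM to 114.0 and 108.5 TPM (-0.76, adjusted *p* = 0.0053). In PPs at 0 h 1 of 17 fell, the collagen galactosyltransferase *COLGALT2*, from 26.8 and 30.6 CPM to 19.7 and 17.3 CPM, and 16 of 17 had a difference below 0, where 6053 of 13911 tested genes did. In hILOs the cross-linking enzyme *LOX* fell from 22.8 and 23.8 TPM to 6.55 and 5.72 TPM (-1.77, adjusted *p* = 0.0056) and *LOXL1* from 10.7 and 11.7 TPM to 3.03 and 2.92 TPM. Its relative *LOXL2*, named after its values were seen, fell from 7.00 and 6.74 TPM to 0.114 and 0.145 TPM. These were 3 calls among 11 tested genes of procollagen processing and cross-linking. In PPs limma called none of 11 at 0 h (3 lower at an unadjusted *p* below 0.05), and edgeR and DESeq2 each called 1 lower.

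Of the basement membrane partners, the laminin chain *LAMA1* fell in A5-KO hILOs from 38.7 and 39.1 TPM to 18.5 and 19.3 TPM (adjusted *p* = 0.0062), the 1 gene called lower among 13 tested. At the PP stage *LAMA4* fell from 41.7 and 40.1 CPM to 25.6 and 27.4 CPM and *LAMB3*, named after its values were seen, rose (1.19), 2 calls among 13 tested genes. Of the collagen receptors, the integrin *ITGA1* rose in hILOs from 15.8 and 14.2 TPM to 23.1 and 26.3 TPM, 1 of 4 tested, and *ITGA10*, also named after its values were seen, fell in PPs (-1.43), 1 of 6. The collagenase *MMP1* fell in hILOs from 377.6 and 384.0 TPM to 228.7 and 220.5 TPM, the 1 call among 6 tested genes of collagen degradation, and none of 7 was called in PPs at 0 h by limma, edgeR or DESeq2 (3 higher at an unadjusted *p* below 0.05). Under Act D in A5-KO, 11 of 13 basement membrane partners, 10 of 17 modification and folding genes, 5 of 10 processing genes, 3 of 6 receptors and 3 of 7 degradation genes had a slope called above 0, against the 7.44% of all tested genes given above, and none of these genes was called below 0 (limma, 2 at an unadjusted *p* below 0.05).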

How the data were processed

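RNA-seq of MEL1 cells covered 4 hILO and 16 PP libraries. Per the submitters' processing notes, reads were trimmed with fastp and mapped to hg38 with HISAT2 2.1.0. The authors deposited TPM values for hILOs, made with StringTie, and CPM values for PPs, with the ERCC spike-in transcripts left out. The annotation release and the PP read counter are not given in the sources used here. The hILO TPM values keep no depth. Of the PP values, 99.9984 to 100% were whole multiples of 1 read (tolerance 0.02), which gave 30516384 to 35206514 reads per library.

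Levels were compared with limma 3.58.1 (R 4.3.3) on log2(value + 1) for genes with a mean of at least 1, within each stage because TPM and CPM tables were normalized separately. Slopes were fitted to log2(CPM + 0.1) over the 16 PP libraries, each genotype having its own intercept and slope. All tests were two-sided, and *p*-values were adjusted over all tested genes. Log2 differences on these scales understate changes of low genes. Because the PP files hold CPM, edgeR 4.0.16 and DESeq2 1.42.0 on recovered reads were alternatives, beside other pseudocounts, filters and scalings, a replicate block, fewer times and each library left out. The scripts were tested on simulated data with 200 changed genes. Values in each library are given for members called in a comparison, the 6 most abundant of each stage and their partner chains, and for called genes of the pathway lists, at most 5 per direction, whose higher genotype averaged 10 or more. The members and lists were chosen with earlier results of these data known. Gene positions and lengths came from GENCODE on GRCh38, and promoters from RefSeq on GRCh38.p14. For 1 gene of the pathway lists the hILO result is not reported here.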

Additional observations from a re-analysis of the deposited data

Results flagged for a closer look

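For 5 collagen chain genes the log2 difference between A5-KO and WT had one direction in both libraries of hILOs and the opposite one in both libraries of PPs at 0 h. It was -2.14 in hILOs and 0.18 in PPs for *COL4A2*, -1.62 and 0.33 for *COL4A1*, -0.95 and 0.25 for *COL7A1*, -0.77 and 0.19 for *COL26A1*, and 1.85 and -0.10 for *COL1A2*. These 5 genes were called in hILOs and were not called in PPs. The difference between the stages was not tested, because hILO values are TPM and PP values CPM. Groups without overlap were frequent among all tested genes. In hILOs 37.1% were lower and 24.3% higher in A5-KO without overlap, and in PPs at 0 h 20.8% and 29%. The share of all genes with opposite directions was not counted, so these 5 genes are not shown to exceed it. *COL4A5* had a slope that was higher in A5-KO than in WT by 0.21 per h, by the test of that difference.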

How the results depend on the processing

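Without the filter on low values, where more genes share the adjustment, the members called in hILOs were 4 lower and 0 higher, those in PPs at 0 h were 2 lower and 2 higher, and 0 slopes were called higher in A5-KO. Median-of-ratios scaling gave 5 members higher in hILOs and 2 WT slopes above 0, and a mean of at least 5 gave 2 slopes higher in A5-KO; the cause was not tested. With 0 and 3 h alone, 10 slopes were higher and 1 lower in A5-KO than in WT, where 2.14% and 20.1% of all tested genes were. In WT 8 slopes were above and 3 below 0, where 1.64% and 16.1% of all tested genes were. With 0 and 1 h alone, 0 slopes were higher in A5-KO than in WT, where 0.374% of all tested genes were. In WT 6 slopes were above 0, where 2.17% of all tested genes were. In A5-KO 10 slopes were above and 1 below 0, where 8.52% and 30.2% of all tested genes were. In that fit the *COL4A5* slope difference reversed to -0.0757 per h and the A5-KO slope of *COL27A1* to -0.31 per h. Leaving out 1 library gave 1 to 3 members lower and 0 to 1 higher in hILOs (each of the 4 libraries moved the lower count), 2 to 4 lower in PPs at 0 h, 0 to 6 slopes higher in A5-KO (6 without WT replicate 1 at 0 h, 5 without WT replicate 1 at 2 h) and 0 to 2 WT slopes above 0. Samples with the same replicate number did not deviate together throughout (correlation of deviations -0.01 in hILOs and 0.18, -0.01, -0.06 and -0.02 in PPs at 0, 1, 2 and 3 h). The main fits used no pairing. With 2 libraries per group these correlations cannot show whether samples with the same number shared a differentiation or a batch. With a replicate block, 5 members were lower in hILOs, against 385 of 17300 tested genes. In that fit 0 slopes were higher in A5-KO, also over all 13620 tested genes. The other counts of members under the replicate block stayed within 1.5 times. The limits are 2 libraries per group, an unknown hILO depth, and CPM values relative to each library's total.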
